A study of Oryctolagus cuniculus with 9 samples.

Results

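The small leucine-rich proteoglycans are secreted matrix proteins built from a curved stack of leucine-rich repeats. They were examined here as 8 genes, BGN, DCN, ECM2, FMOD, LUM, OGN, PODN and PRELP, chosen by symbol out of 14870 genes listed for rabbit cartilage. Proteins of this family sit on the surface of collagen fibrils, where they set fibril diameter and spacing, and several of them bind growth factors such as TGF-beta. Decorin and biglycan carry chondroitin or dermatan sulphate chains, whereas fibromodulin and lumican carry keratan sulphate. In articular cartilage they belong to the collagen and aggrecan network that bears load, and proteases release fragments of them when cartilage is damaged.

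RNA sequencing covered 9 libraries of New Zealand white rabbits aged 4 to 5 months, taken 12 weeks after surgery, with 3 libraries in each of 3 groups. Untreated samples came from a surgical defect of 4 to 6 mm diameter in the trochlear groove of the left knee, left empty. CLCS samples came from the same kind of defect in the right knee, filled with a collagen-chondroitin sulphate (CLCS) scaffold of 5 mm diameter and 1 mm height. Healthy samples were cartilage from the condyle without a defect, so a difference from healthy tissue is also a difference in site, and the 2 cannot be told apart. The labels name no allele, drug or pooling of animals in any group. Whether libraries of the same replicate number came from the same rabbit is not stated, so p-values measure the spread between these libraries only.

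Values are normalized reads, meaning that each library was scaled by its DESeq2 size factor. Library totals recovered from the deposited values ranged from 724986 to 1226408 reads. These totals are far below the aligned read pairs that the authors report for each library, for a reason that was not tested. The 8 genes together held 237 to 1014 reads of a library, so that each value below rests on few reads. A single gene without a symbol took 1.49% to 49.4% of a library, lowest in untreated replicate 3 and highest in CLCS replicate 3, and widely expressed genes were shallow (ACTB with 10 to 128 reads). Of the reads on mitochondrial protein genes, 86.0% to 94.4% in each library were assigned to ND6, which is encoded on the other strand from the rest. The strand setting of the count is not given, so reads of a gene and of transcripts antisense to it cannot be told apart, and the bearing of this on the read counts below was not tested. The tissue is bulk, so fewer cells that use a gene and less of its RNA per cell cannot be told apart. No transcript lengths were at hand, and levels are therefore compared between groups for each gene and never between genes. A gene was called when limma on log2(value + 1) gave a Benjamini-Hochberg adjusted p under 0.05 among the genes with enough reads in the 6 libraries compared.

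Of the 8 genes, OGN was lower in defects of both kinds than in healthy cartilage and LUM was near 0 in healthy cartilage and present in every defect library. DCN, FMOD and PRELP had lower means in both kinds of defect without passing the main test. Their libraries overlapped healthy ones except for FMOD in untreated defects. BGN and ECM2 also overlapped between groups, and PODN held nearly the same level in all 9 libraries. In untreated defects 7 genes could be tested and all 7 fold changes were negative, with a median of -1.63 beside -0.02 over all 3496 tested genes, of which 51.5% were negative. The main test called 1 of the 7, OGN, where it called 2.55% of all tested genes. In CLCS defects 6 of 7 fold changes were negative, with a median of -0.62 beside -0.08 over 3294 genes, of which 55.1% were negative. Again 1 of the 7 was called, OGN, against 3.16% of all tested genes. LUM, the 8th gene, reached the read minimum in 2 untreated, 2 CLCS and 0 healthy libraries, where 3 of the 6 compared were needed. It was therefore not tested against healthy samples and is absent from these 7 fold changes. LUM stood higher in both kinds of defect. Both comparisons use the same 3 healthy libraries, so their agreement is not independent.

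**Figure D1:**
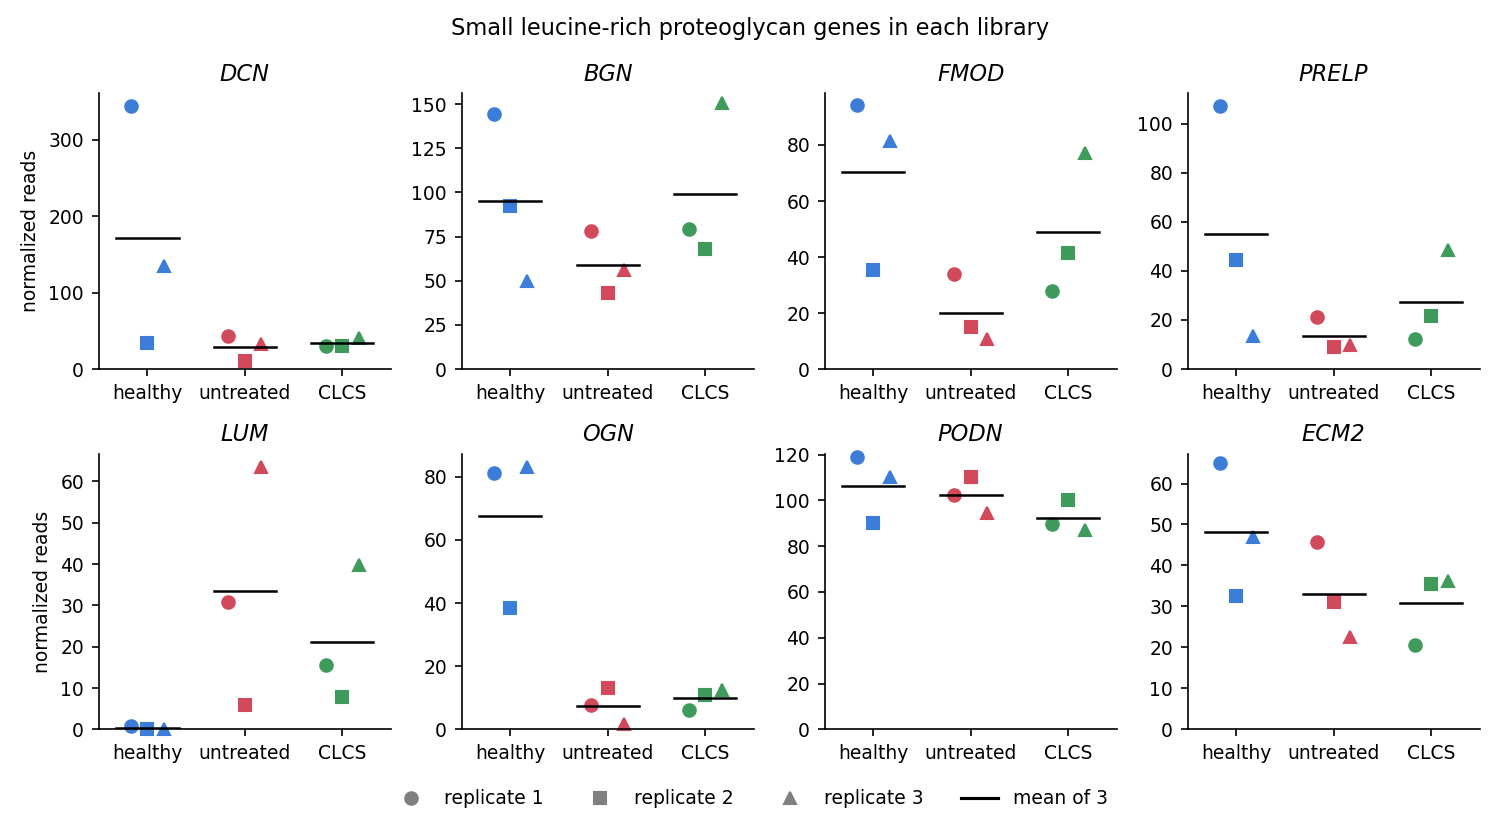
Normalized reads (y axis, linear from 0, a scale of its own in each panel) of the 8 genes in each library, by group on the x axis. Symbols mark replicates 1 to 3 and black lines the mean of 3. OGN is separated between healthy and defect libraries, LUM is at or near 0 in the 3 healthy libraries, and PODN stays between 87.2 and 119.

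DCN (ENSOCUG00000006969) encodes decorin, which binds collagen fibrils and holds TGF-beta in the matrix. It had 344, 34.5 and 135 normalized reads in healthy replicates 1 to 3. Untreated replicates had 43.3, 10 and 32.6, and CLCS replicates had 30.0, 29.5 and 41.1. Healthy replicates 1 and 3 lay above every defect library, whereas healthy replicate 2 lay inside the range of the defects. Healthy libraries averaged 171 ± 158 (SD, n = 3), untreated ones 28.7 ± 17.0 and CLCS ones 33.5 ± 6.55, so the healthy spread was nearly as large as the healthy mean. By limma, DCN in untreated defects differed from healthy cartilage by -2.22 on the log2 scale (SE 0.88, adjusted p = 0.259) and in CLCS defects by -1.79 (SE 0.74, adjusted p = 0.273). DESeq2 on the recovered reads gave adjusted p = 0.0218 and 0.0128 for them. Single healthy libraries moved the value for CLCS samples, which was -2.66 and passed without healthy replicate 2 (adjusted p = 0.0419) and was -1.02 without healthy replicate 1 (adjusted p = 0.464). In untreated samples it was -1.45 without healthy replicate 1 (adjusted p = 0.478), and it passed in none of the 6 fits that left out 1 library.

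BGN (ENSOCUG00000023931) encodes biglycan, the closest relative of decorin, which also binds collagen and is known, when released, to act on Toll-like receptors. Healthy replicates had 144, 92.4 and 49.7 normalized reads, untreated replicates 78.0, 43.0 and 56.2, and CLCS replicates 79.6, 67.9 and 151. All 3 groups overlapped, and the highest library of the 9 was CLCS replicate 3. The log2 fold change was -0.60 (95% interval -1.65 to 0.46) in untreated and 0.10 (-1.01 to 1.21) in CLCS samples. The sign of the second is not fixed, because it became -0.03 when libraries were scaled to their total without the most abundant gene.

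FMOD (ENSOCUG00000009702) encodes fibromodulin, which binds fibrillar collagen and takes part in fibril assembly and crosslinking. Its normalized reads were 94.2, 35.5 and 81.3 in healthy replicates, 33.9, 15 and 10.9 in untreated replicates and 27.9, 41.3 and 77.2 in CLCS replicates. Every untreated library lay below every healthy library, by a narrow margin between untreated replicate 1 and healthy replicate 2, while CLCS libraries spanned both. Together with OGN, FMOD was 1 of 2 tested members whose untreated libraries all lay below the healthy ones, an arrangement that 10.7% of all tested genes showed in this direction. In untreated samples the log2 fold change was -1.81 (SE 0.53, adjusted p = 0.138, limma), and DESeq2 gave adjusted p = 0.0331. In CLCS samples it was -0.53 (SE 0.50, adjusted p = 0.647), and leaving out 1 library moved it between -0.95 and -0.20.

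PRELP (ENSOCUG00000009707) encodes a heparin-binding member that links collagen to neighbouring matrix and lies beside FMOD in the genome. It had 107, 44.7 and 13.6 normalized reads in healthy, 21.3, 9.0 and 9.97 in untreated and 12.4, 21.6 and 48.6 in CLCS replicates. The 3 healthy values spread over 7.93-fold, and the lowest of them lay among the untreated libraries. On the log2 scale PRELP differed from healthy cartilage by -1.63 (SE 0.72, adjusted p = 0.326, limma) in untreated and by -0.75 (SE 0.77, adjusted p = 0.676) in CLCS defects. These values moved with single healthy libraries, being -0.94 and -0.06 without healthy replicate 1 and -2.38 and -1.51 without healthy replicate 3, and none of the 4 passed. In CLCS samples PRELP was also at -0.31 without CLCS replicate 1 and at -1.26 without CLCS replicate 3.

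**Figure D2:**
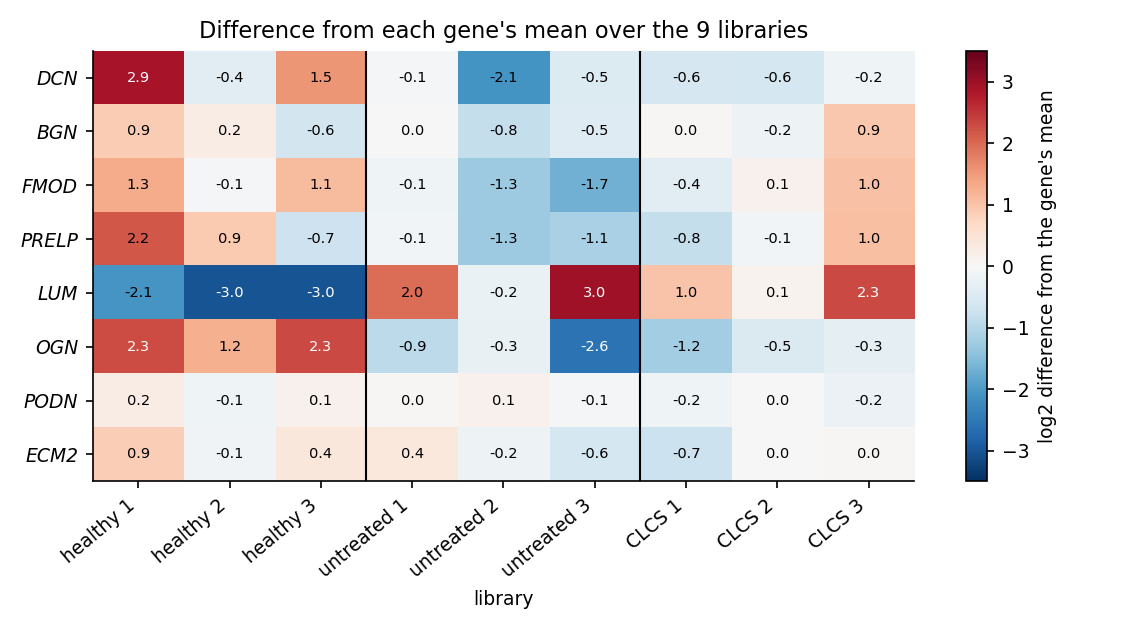
Log2(normalized reads + 1) of the 8 genes (rows) in the 9 libraries (columns), given as the difference from the mean of that gene over all libraries. Blue is below and red above the mean. OGN and LUM are opposite in colour between healthy and most defect libraries, and the PODN row is nearly white.

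LUM (ENSOCUG00000005592) encodes lumican, which spaces collagen fibrils and is best known for the transparency of the cornea. Healthy replicates held 1, 0 and 0 reads, where a count of 0 allows up to 3 reads in a library. Untreated replicates held 39, 6 and 70 reads, and CLCS replicates 15, 8 and 32. Each of the 6 defect libraries lay above each healthy library. In normalized reads this was 0.942, 0 and 0 against 30.7, 6.0 and 63.5 in untreated and 15.5, 7.87 and 39.8 in CLCS samples. The ratio of summed reads, scaled for library size, was 108 (95% exact interval 18.9 to 4284) for untreated and 62.2 (10.7 to 2502) for CLCS against healthy samples. These intervals cover counting error only and not the 10.6-fold spread among untreated replicates.

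Too few libraries reached the read minimum for LUM to enter the main test against healthy samples. Without that filter limma gave adjusted p = 0.0622 in untreated and 0.0510 in CLCS samples, whereas DESeq2 without it gave adjusted p = 0.000348 and 0.00158. The call for LUM thus depended on the test. Leaving out any 1 library, the difference of mean log2 values stayed between 3.58 and 5.18 in untreated samples and between 3.28 and 4.38 in CLCS samples.

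OGN (ENSOCUG00000009017) encodes osteoglycin, also called mimecan, a member first described from bone that likewise binds collagen fibrils. Healthy replicates held 86, 38 and 92 reads, which is 81.0, 38.6 and 83.1 normalized reads. Untreated replicates had 7.88, 13.0 and 1.81 and CLCS replicates 6.20, 10.8 and 12.5 normalized reads. The highest of the 6 defect libraries, at 13.0, was well below the lowest healthy library, at 38.6. On means OGN was 8.93-fold lower in untreated (7.56 ± 5.6, n = 3) and 6.88-fold lower in CLCS samples (9.82 ± 3.24) than in healthy samples (67.6 ± 25.1). With the filter on low values limma called it in either kind of defect, at log2 fold changes of -3.20 (SE 0.63, adjusted p = 0.0490) and -2.63 (SE 0.41, adjusted p = 0.0240). Without that filter the same differences had adjusted p = 0.0729 and 0.0822 and were not called.

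For OGN, edgeR on the recovered reads gave adjusted p = 0.0453 and 0.0180, and DESeq2 gave 4.93e-05 and 1.69e-05. In CLCS samples OGN was the 1 tested member of 7 whose libraries all lay below the healthy ones, as did 12% of all tested genes. Only 1 of 3 libraries in either defect group reached the read minimum for OGN, so it entered the test through its healthy libraries. The main call in untreated samples was narrow, since leaving out any 1 of the 6 libraries gave adjusted p from 0.0669 to 0.147, with fold changes between -3.70 and -2.54. In these reduced fits 2 to 7 genes of the whole table were called. In CLCS samples it passed without healthy replicate 2 (adjusted p = 0.0231) and missed without any other library, at up to 0.102.

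**Figure D3:**
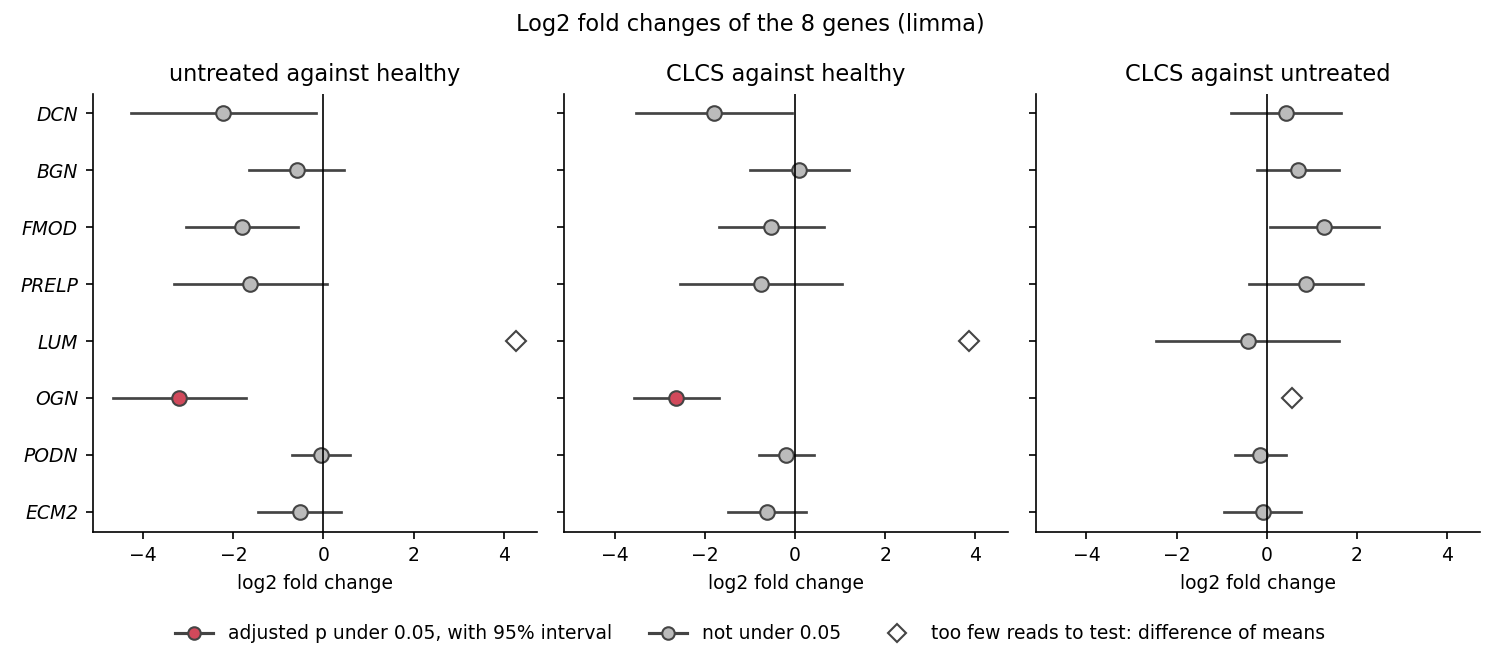
Log2 fold change (x axis) of each gene in the 3 comparisons, with the 95% interval of limma as a line. Red circles mark adjusted p under 0.05, which only OGN reached against healthy samples. White diamonds are differences of mean log2 values for LUM and OGN where too few reads allowed no test.

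LUM and OGN differed from healthy cartilage in opposite directions in the same libraries. LUM made up 0% to 1.15% of the summed reads of both genes in healthy libraries, 31.6% to 97.2% in untreated libraries and 42.1% to 76.2% in CLCS libraries. Untreated replicate 3 had the most LUM and the least OGN of all 9 libraries, and untreated replicate 2 had the least LUM and the most OGN of the defect libraries. The CLCS libraries did not show this order, as CLCS replicate 3 had the most of both genes among them. The share is a ratio within a library and does not depend on how libraries were scaled.

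**Figure D4:**
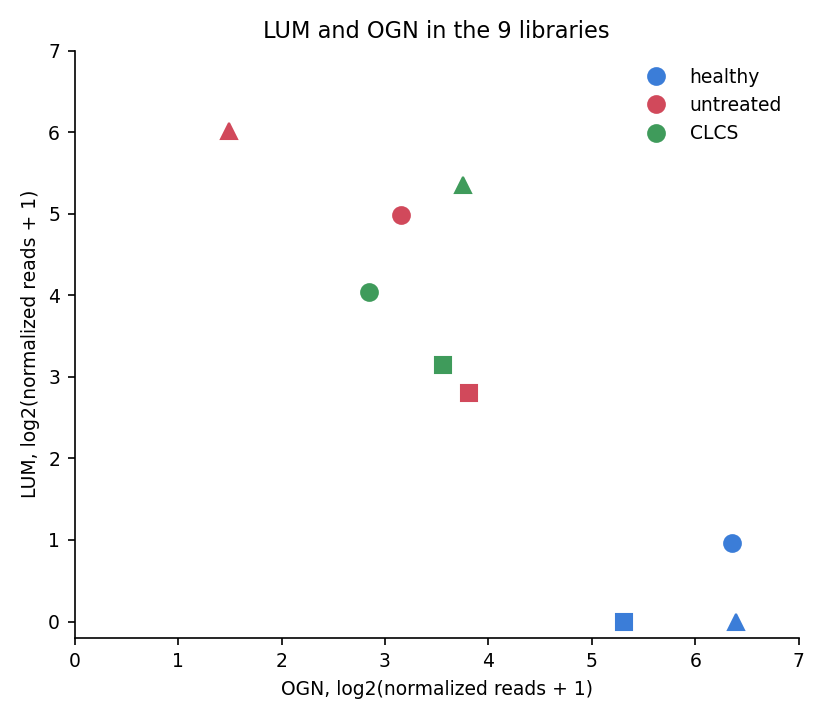
Log2(normalized reads + 1) of OGN (x axis) and LUM (y axis) in the 9 libraries, coloured by group, with circles, squares and triangles for replicates 1, 2 and 3. Healthy libraries lie at the lower right and defect libraries to the left and above.

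PODN (ENSOCUG00000002562) encodes podocan, a more distant member of the family that binds collagen and is known to restrain smooth muscle cell growth. It had 119, 90.3 and 110.2 normalized reads in healthy, 102, 110.0 and 94.3 in untreated and 89.9, 100.4 and 87.2 in CLCS replicates. The spread within a group was at most 1.31-fold, the least of the 8 genes. Log2 fold changes were -0.05 (95% interval -0.69 to 0.59) in untreated and -0.19 (-0.81 to 0.42) in CLCS samples, so a change of more than 1 on the log2 scale lay outside both intervals.

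ECM2 (ENSOCUG00000008288) encodes a leucine-rich matrix protein related to decorin whose function is less well known. Healthy replicates had 65.0, 32.5 and 47.0 normalized reads, untreated replicates 45.7, 31.0 and 22.7 and CLCS replicates 20.7, 35.4 and 36.1. The groups overlapped in both comparisons. The log2 fold change was -0.53 (95% interval -1.44 to 0.39) in untreated and -0.62 (-1.48 to 0.24) in CLCS samples.

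The count tests bore on how many members passed. DESeq2 called 3 members in untreated samples (OGN, DCN and FMOD) and 2 in CLCS samples (OGN and DCN), where it called 7.87% and 7.38% of all tested genes. The quasi-likelihood test of edgeR called 1 member in each, OGN, beside 2.49% and 3.73% of all tested genes.

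Libraries of 1 group differed for many members at once. Healthy replicate 1 was the highest healthy library for 7 of the 8 genes and healthy replicate 2 the lowest for 6. CLCS replicate 3, the library in which the most abundant gene took 49.4% of reads, was the highest CLCS library for 7 of the 8. Summed over the 8 genes, normalized reads were 368 to 955 in healthy, 237 to 363 in untreated and 282 to 493 in CLCS libraries. The lowest healthy sum stood just above the highest untreated sum. Without DCN the sums were 334 to 611, 227 to 320 and 252 to 452.

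The direct question for the scaffold, whether filled defects differed from empty ones, was examined by comparing CLCS with untreated samples. Scaffolds lay in right knees and empty defects in left knees, so scaffold and side cannot be told apart. No member passed, and neither did any other gene (limma, 3275 tested). At an unadjusted p under 0.05 there was 1 of 7 tested members, FMOD, beside 2.90% of all tested genes. With the filter on low values edgeR and DESeq2 called 0 genes. Without it edgeR called 29 of 14093 genes, none of them a member, and DESeq2 called 0. FMOD was 2.45-fold higher on means in CLCS samples, with a log2 fold change of 1.28 (95% interval 0.08 to 2.49, adjusted p = 0.996, limma), and CLCS replicate 1 lay below untreated replicate 1. With the replicate number as a block its unadjusted p was 0.0749.

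PRELP had a log2 fold change of 0.87 (-0.38 to 2.13) between CLCS and untreated samples, and BGN 0.69 (-0.22 to 1.60). For DCN it was 0.43 (-0.79 to 1.64) and for LUM -0.42 (-2.45 to 1.61). ECM2 at -0.09 (-0.94 to 0.76) and PODN at -0.14 (-0.71 to 0.42) had the narrowest intervals. OGN was too low in both groups to be tested and differed by 0.57 on mean log2 values, which was -0.09 without untreated replicate 3. The 7 members tested had a median of 0.43 beside -0.00 over all genes. With the replicate number as a block, intervals were -0.18 to 2.75 for FMOD, -0.58 to 2.32 for PRELP, -0.15 to 1.54 for BGN, -0.64 to 1.49 for DCN and -1.25 to 0.41 for LUM. For ECM2 the block gave -1.09 to 0.91 and for PODN -0.71 to 0.43. The PODN interval alone held no change of more than 1 on the log2 scale in either fit, so 3 libraries a group do not show that the scaffold left the other genes unaltered.

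Of 10 further family members looked for, 8 were listed (ASPN, OMD, EPYC, KERA, OPTC, CHADL, NYX and TSKU) and CHAD and PODNL1 were not found by symbol. None of the 8 had enough reads to be tested, whereas each of the members described above was tested in at least 1 comparison. Asporin (ASPN), a relative of decorin that binds TGF-beta, had 9, 3 and 1 reads in healthy, 34, 2 and 3 in untreated and 13, 9 and 11 in CLCS replicates. Its highest value came from untreated replicate 1 alone. Osteomodulin (OMD), a keratan sulphate member of bone, had 17, 0 and 3 reads in healthy, 5, 3 and 4 in untreated and 9, 3 and 3 in CLCS replicates. Epiphycan (EPYC), a member of growth cartilage closely related to osteoglycin, had 7, 6 and 13, then 4, 7 and 6, then 10, 7 and 3 reads. Keratocan (KERA) of the cornea and opticin (OPTC) of the eye had at most 3 and 2 reads in any library, and CHADL, NYX and TSKU at most 3, 6 and 2.

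Family genes lie in clusters, for which only gene order was read, from the RefSeq annotation of mOryCun1.1, since the reads were aligned to another assembly, oryCun2.0. Within each cluster no annotated gene lies between neighbours. ECM2, ASPN, OMD and OGN follow each other, as do EPYC, KERA, LUM and DCN, and FMOD, PRELP and OPTC. LUM and DCN are thus adjacent and had differences from healthy of opposite sign, while FMOD and PRELP, also adjacent, were both lower on means in untreated samples. The large gene CENPP overlaps ECM2, ASPN, OMD and OGN. It had 0 to 5 reads in any library, against 38 to 92 reads of OGN in healthy libraries. Pseudogenes that are not listed overlap ECM2 and FMOD, so their reads may be shared. BGN, DCN, LUM, PODN and PRELP have no annotated gene within 1000 bases. CHADL overlaps L3MBTL2, which had 125 to 1223 reads, and its 0 to 3 reads cannot be assigned with certainty.

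Genes with the profile most like each member were found by the root mean square difference of mean-centred log2 values over the 9 libraries, among 3812 genes, where a smaller value is closer and genes that vary little come out closer. OGN was closest to LRRIQ4 (0.52) and to GREM1 (0.53), an antagonist of BMP signalling. GREM1 had 12.2, 18.3 and 14.5 normalized reads in healthy replicates and at most 2.49 in any defect library. FMOD was closest to C19orf66 (0.34) and COL11A1 (0.44), a chain of the cartilage collagen fibril. PRELP was closest to SOD3 (0.37), the extracellular superoxide dismutase, and BOC (0.47). DCN was closest to SETD1A (0.46) and HIF1A (0.50), the hypoxia factor.

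HIF1A had 194, 52.8 and 187 normalized reads in healthy, 31.5, 8.0 and 42.6 in untreated and 21.7, 19.7 and 52.3 in CLCS replicates, with the same low healthy replicate 2 as DCN. BGN was closest to PIAS2 (0.31) and DEK (0.32), ECM2 to TRMT1L (0.24) and PSMD14 (0.25), and PODN to BCDIN3D (0.09) and SLC30A5 (0.11). LUM, whose own values varied most (2.16 around their mean by the same measure), was closest to KIAA0895 (0.81) and CRYBG2 (0.82). Members and genes without a symbol were left out of this ranking. Each member lay further from every other member than from the genes named here. With so many genes to choose from, this does not tell whether the family varies together. These distances describe the 9 libraries, share their depth and carry no test.

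The collagens that these proteins bind differed by chain. Of 17 fibrillar and fibril-associated collagen genes, 12 were tested against healthy samples, and 2 passed in each comparison, both upward. COL1A1, a chain of the type I collagen of bone and scar, had 247, 95.4 and 36.1 normalized reads in healthy, 1542, 795 and 1925 in untreated and 2052, 1208 and 1326 in CLCS replicates. It rose by 3.79 (SE 0.70, adjusted p = 0.0398, limma) on the log2 scale in untreated defects and by 3.95 (SE 0.65, adjusted p = 0.0277) in CLCS defects. COL1A2, the partner chain, rose by 3.68 (adjusted p = 0.0292) and 3.53 (adjusted p = 0.0288). COL2A1, the main collagen of cartilage, did not pass (-1.61, adjusted p = 0.504, and 0.71, adjusted p = 0.462). The median of the list was -0.18 in untreated and 0.63 in CLCS samples.

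Proteases that can cleave members of the family formed another list. All 6 tested of 12 had positive fold changes in both comparisons, with medians of 2.71 and 2.55. Over all tested genes 51.5% and 55.1% of fold changes were negative. The main test called 1 of the 6 in each comparison, MMP13, beside 2.55% and 3.16% of all tested genes. MMP13, a collagenase of cartilage and bone that cleaves fibromodulin, had 4.7, 4.1 and 3.6 normalized reads in healthy, 70.1, 71.0 and 116 in untreated and 51.7, 27.6 and 39.8 in CLCS replicates. Healthy libraries lay below the read minimum for MMP13, so it entered the test through its defect libraries. MMP13 rose by 4.04 (SE 0.32, adjusted p = 0.00513, limma) in untreated and by 2.95 (SE 0.31, adjusted p = 0.0104) in CLCS samples. BMP1, which matures biglycan and osteoglycin, had log2 fold changes of 2.60 (adjusted p = 0.127) and 2.88 (adjusted p = 0.0833). CTSK and MMP9, the cathepsin and gelatinase abundant in osteoclasts, were at 3.07 (adjusted p = 0.0980) and 2.81 (adjusted p = 0.139) in untreated samples. DESeq2 called MMP13, BMP1 and MMP9 in both comparisons and CTSK in untreated samples.

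**Figure D5:**
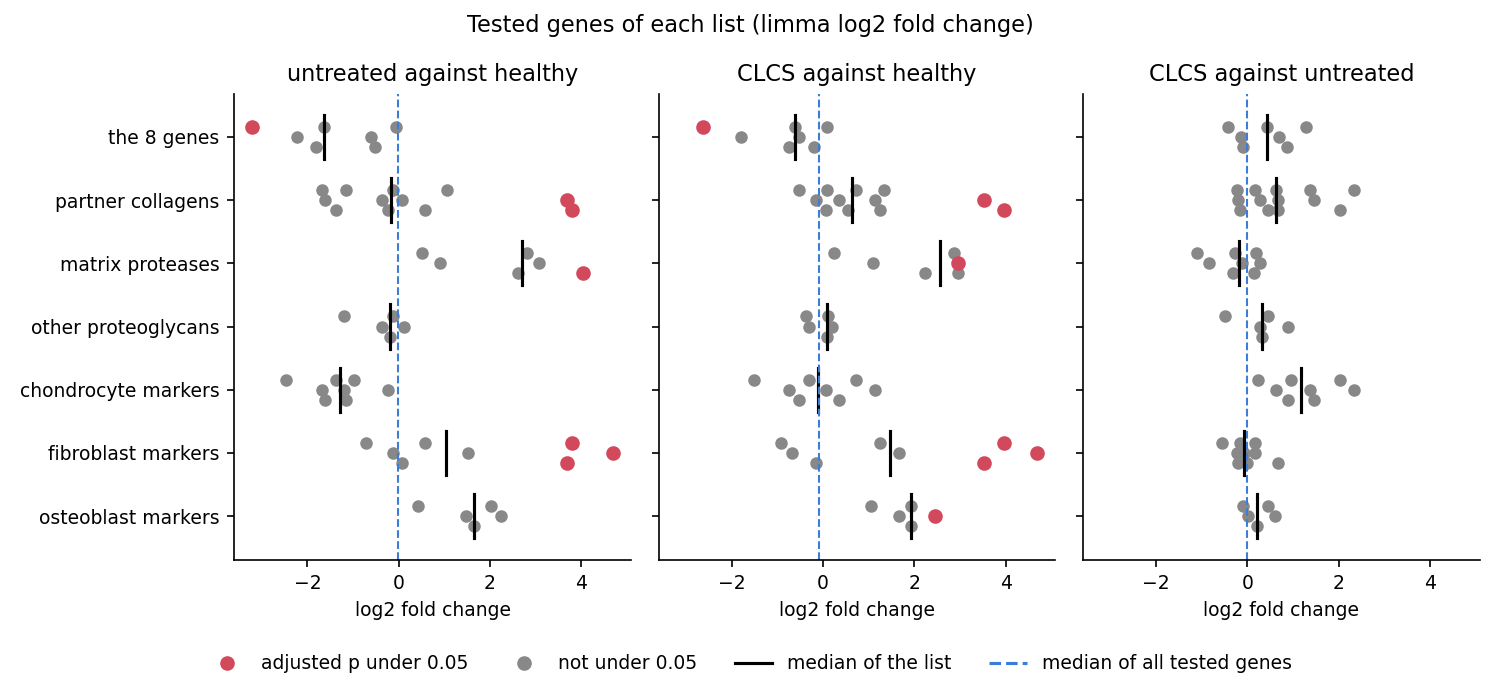
Log2 fold change (x axis) of every tested gene of 7 lists in the 3 comparisons. Red points passed at adjusted p under 0.05, black bars are list medians and the dashed line is the median of all tested genes. Collagen and cartilage genes stand in more than 1 list, and so do COL1A1 and COL1A2.

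No tested gene passed limma, edgeR or DESeq2 in the lists of ligands, receptors, chain enzymes and other proteoglycans, and at an unadjusted limma p under 0.05 there was 1 gene in CLCS samples (ITGA2) and 1 in untreated samples (ACAN). Among 17 genes of TGF-beta signalling 3 could be tested, of which LTBP2, a latent TGF-beta binding protein, had log2 fold changes of 0.68 and 0.51 in untreated and CLCS samples. Of 11 receptors of the family 3 were tested, and ITGA2, the collagen-binding integrin subunit, was at 0.69 and 1.04 with adjusted p = 0.448 and 0.157 (limma). Of 22 enzymes and sulphotransferases of chondroitin and dermatan sulphate chains 2 were tested (CSGALNACT2 at 0.27 and 0.14, CHST3 at -0.25 and 0.20). Of 10 keratan sulphate enzymes none had enough reads. Among 22 other proteoglycans 5 were tested and none passed, with aggrecan (ACAN) at -1.19 (adjusted p = 0.278) in untreated and -0.30 (adjusted p = 0.749) in CLCS samples.

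Markers of cell types were summed in the same libraries. Chondrocyte markers, of which 11 of 16 were listed, summed to 8238 to 11130 normalized reads in healthy, 762 to 10039 in untreated and 10051 to 28121 in CLCS libraries. All 8 tested had negative fold changes in untreated samples (median -1.29). In limma 0 passed and 4 had an unadjusted p under 0.05, and DESeq2 called 1, CYTL1. In CLCS samples 4 of 8 were negative, limma called 0, and DESeq2 again called CYTL1 (-1.99, adjusted p = 0.0361). Between CLCS and untreated samples all 8 were positive, with a median of 1.17 beside -0.00 over all tested genes, and limma called 0. The lowest sum was that of untreated replicate 3, the library with the least OGN and FMOD and the most LUM. Fibroblast markers, 12 of 13 listed, summed to 1300 to 4341, 2345 to 5921 and 3059 to 5191. In limma 3 of 8 tested passed upward in each comparison with healthy samples (COL1A1, COL1A2 and POSTN). Of the 8, 2 had negative fold changes in untreated samples and 3 in CLCS samples. POSTN, or periostin, rose by 4.69 on the log2 scale in both (adjusted p = 0.0286 and 0.0168, limma).

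Osteoblast markers, 7 of 8 listed, summed to 308 to 914 in healthy, 985 to 2982 in untreated and 1864 to 2428 in CLCS libraries. IBSP, bone sialoprotein, rose by 2.46 (adjusted p = 0.0277, limma) in CLCS samples. In untreated samples it was at 2.24 (adjusted p = 0.125 in limma and 0.00359 in DESeq2). Between CLCS and untreated samples IBSP differed by 0.22. Macrophage markers, all 7 listed, summed to 32.5 to 41.6, 49.0 to 206 and 58.5 to 76.5, and TYROBP rose by 1.82 (adjusted p = 0.0188, limma) in CLCS samples. TYROBP was not tested in untreated against healthy samples, and between CLCS and untreated samples it differed by 0.16 (adjusted p = 0.996, limma). In CLCS samples CD68 was at -0.14 and AIF1 at -0.58. In untreated samples CSF1R was at 1.53 (adjusted p = 0.135, limma), CD68 at 0.58 and AIF1 at -0.44. The tendon markers listed, 2 of 4, summed to 31.5 to 106, 8.67 to 17.0 and 14.5 to 56.0. Endothelial, adipocyte, muscle and erythroid markers summed to at most 14.5, 14.0, 20.3 and 3.61 normalized reads in any library. Cartilage markers were thus present in every library, and 1 of them, MATN1, had 0 reads in all defect libraries and 0, 0 and 2 in healthy ones. The part of these cell types in the levels of OGN, LUM, DCN and FMOD was not tested.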

How the data were processed

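RNA sequencing of 9 rabbit cartilage libraries was analysed, 3 each of healthy, untreated and CLCS samples, grouped by their labels. As the authors' methods state, TopHat and Bowtie aligned polyA TruSeq libraries to oryCun2.0, reads with several alignments were set aside, and gene counts from eXpress were normalized with DESeq2. Tool versions, annotation release and strand setting are not given in the sources used here. The deposited values are a signal, gene counts divided by the size factor of the library, although their columns are headed as counts. Whole reads were recovered for 100% of values (tolerance 0.01). Healthy columns, which stand identically in either table, entered 1 time.

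The main test was limma 3.58.1 (R 4.3.3) on log2(value + 1) with the 6 libraries of each comparison, for genes kept by filterByExpr (at least 10 reads at the median library size in 3 libraries and 15 reads in all). Alternatives were edgeR 4.0.16 and DESeq2 1.42.0 on recovered reads, pseudocounts of 0.5 and 5, no filter, other scalings, a fit over 9 libraries, a replicate block and leaving out each library. The pipeline was tested on simulated data. Deviations of libraries with the same replicate number correlated across 3812 genes at 0.29, 0.13 and -0.04 for untreated and healthy samples. The correlations were 0.28, 0.14 and 0.19 for CLCS and healthy samples and 0.25, 0.33 and 0.30 for CLCS and untreated samples. The main test took no numbers as pairs, and the replicate block was an alternative in every comparison.

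The 8 genes and all lists were chosen with earlier results of these data known. Named were all 8 genes, other family members, overlapping genes, the 2 closest profiles of each member, and from the other lists the called genes or up to 3 with the smallest p. Genes named beyond that rule (COL2A1, BMP1, CTSK, MMP9, CYTL1, MATN1, CSF1R, CD68 and AIF1) were chosen after their values were seen. No sequences are printed, and gene order comes from mOryCun1.1.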

Additional observations from a re-analysis of the deposited data

How the results depend on the processing

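Of 261 values of single members under other settings than leaving out a library, 1 changed sign (BGN in CLCS against healthy samples, -0.033 with library totals without the most abundant gene). In untreated against healthy samples the number of members called was 1. It was 0 with a pseudocount of 0.5, without the filter on low values and with totals lacking the most abundant gene, 3 with DESeq2 and with the replicate block in edgeR, and, added after the data were seen, 5 with edgeR and 4 with DESeq2 without the filter. In CLCS against healthy samples it was also 1, then 0 without the filter, 2 with DESeq2, and 3 with either count test without the filter. Among all tested genes, 89 and 104 were called. The counts were 20 and 13 without the filter, 275 and 243 with DESeq2, 139 and 194 with the replicate block in edgeR, 497 and 400 with edgeR and 269 and 244 with DESeq2 without the filter, and 173 for untreated samples in 1 fit over 9 libraries. Between CLCS and untreated samples edgeR without the filter called 29 genes, and every other setting called 0. Scaling to totals without the most abundant gene shifted the median of all genes to -0.20 in CLCS against healthy (63.6% negative instead of 55.1%) and to -0.15 in CLCS against untreated samples (65.9% instead of 50.5%).

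With the replicate block in limma, 1 member passed in untreated against healthy samples, DCN (adjusted p = 0.0449) and not OGN (0.0637). In CLCS against healthy samples OGN passed (0.0247), and no member passed between CLCS and untreated samples. Whether equal replicate numbers are pairs is not known. In limma the block thus moved the call from OGN to DCN in untreated against healthy samples. In the comparisons with CLCS samples it changed no call of a member. Leaving out 1 library gave 0 members called in untreated against healthy samples and 0 to 2 in CLCS against healthy samples. Fold changes that crossed 0 when 1 library was left out ranged from -0.16 to 0.032 for PODN in untreated against healthy, from -0.30 to 0.46 for BGN in CLCS against healthy, and in CLCS against untreated samples from -0.18 to 0.83 for DCN, -0.33 to 0.16 for ECM2, -1.32 to 0.28 for LUM and -0.09 to 1.07 for OGN, which had no test. An arm left with 2 libraries is assumed to vary like the other. LUM against healthy samples and OGN between defects have no fitted value under settings that keep the filter. Depth limits OGN in defects (2 to 13 reads) and LUM in healthy cartilage (0 to 1).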
